A study of Mus musculus with 24 samples.

Results

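The genes described here are the nuclear genes that encode the respiratory chain and the ATP synthase of mitochondria, read in adipose tissue of mice with a wild-type or a mutant STAT5B. They were chosen by name: every symbol that starts with Nduf, Uqcr or Atp5, the 4 Sdh subunit genes, Uqcc1, Cyc1 and 11 named Cox genes, kept where CPM (counts per 1e6 gene counts), averaged over all libraries, reached 1. Of 24421 gene symbols, 87 matched the names and 86 passed the level. The gene left out was Ndufs5, with 1 count over all libraries and a mean of 0.00123 CPM. Whether its reads were lost in counting was not tested, so the value does not show that the gene is silent. The lowest genes kept were Atp5s at 4.23 CPM and Ndufaf6 at 4.54 CPM. By role, 35 belong to complex I, 4 to complex II, 9 to complex III, 12 to complex IV and 16 to complex V, and 10 are assembly factors.

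The 24 libraries, 4 for each of 6 groups, were made from RNA depleted of ribosomal RNA, taken from fat of C57BL/6 mice aged 2 months. The groups were males and females that were WT, carried STAT5B-Y665F or carried STAT5B-Y665H, point mutations of 1 tyrosine of the transcription factor STAT5B. The labels name no fat depot, no zygosity and no treatment, and do not say that replicates came from separate mice, so p-values measure the spread between these libraries. All groups share strain, age and the label of adipose tissue. Whether males and females share a depot is not given, so a difference of depot cannot be told apart from sex.

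Complexes I and II feed electrons from NADH and succinate into ubiquinone, complex III passes them to cytochrome c, and complex IV passes them to oxygen. Complexes I, III and IV pump protons, and complex V, the ATP synthase, uses the gradient to make ATP. White fat cells need mitochondria for lipid synthesis and fatty acid breakdown, and brown or beige fat cells hold many more of them and can release the gradient as heat. STAT5B carries signals of growth hormone, prolactin and several cytokines to the nucleus, and growth hormone acts differently in male and female rodents.

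The genes lie at many places in the genome: 84 were placed in the GENCODE M21 annotation of GRCm38, on 19 chromosomes, with at most 8 on 1 chromosome. Promoter windows from RefSeq (GRCm38.p6) matched 72 of the 86 genes, with 78 windows. Of these, 4 windows are shown, each the 250 bases before an annotated start, 5′ to 3′ on the gene's strand. They were chosen among the 10 windows that end at an annotated transcript start and touch no annotated exon. Cox7b and Atp5g3 had the smallest p of their complex among these, between Y665H and Y665F females. Ndufaf4 and Ndufb6 were picked because they hold a motif, so matches in the windows shown are no finding. Another window, picked by p for complex I, held no match and is not shown. Capitals mark motif matches on either strand: CCAAT (NF-Y) in Cox7b, CCAAT and TNAAGGTCA (ERR) in Atp5g3, GCGCNTGCG (NRF1) in Ndufaf4, and CCGGAAG (ETS factors such as GABP) with a pair of TTCNNNGAA matches (STAT5) in Ndufb6. Cox7b lies at chrX:106015450-106015699 (plus strand), Atp5g3 at chr2:73911327-73911576 (minus strand), Ndufaf4 at chr4:24897833-24898082 (plus strand) and Ndufb6 at chr4:40279422-40279671 (minus strand).
Cox7b: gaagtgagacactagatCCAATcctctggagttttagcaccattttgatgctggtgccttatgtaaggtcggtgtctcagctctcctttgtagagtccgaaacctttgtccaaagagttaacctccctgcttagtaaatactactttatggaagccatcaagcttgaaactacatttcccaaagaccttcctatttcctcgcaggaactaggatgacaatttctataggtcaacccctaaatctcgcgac
Atp5g3: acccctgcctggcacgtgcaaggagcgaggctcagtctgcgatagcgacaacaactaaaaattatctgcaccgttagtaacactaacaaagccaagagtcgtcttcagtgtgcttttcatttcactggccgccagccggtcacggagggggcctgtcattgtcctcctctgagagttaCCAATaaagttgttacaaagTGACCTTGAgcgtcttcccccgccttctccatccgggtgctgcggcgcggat
Ndufaf4: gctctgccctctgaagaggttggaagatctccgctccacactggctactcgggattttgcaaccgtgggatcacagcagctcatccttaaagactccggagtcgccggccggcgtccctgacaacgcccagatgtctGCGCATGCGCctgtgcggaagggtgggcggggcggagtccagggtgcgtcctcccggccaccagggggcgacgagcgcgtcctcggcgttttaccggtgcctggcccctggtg
Ndufb6: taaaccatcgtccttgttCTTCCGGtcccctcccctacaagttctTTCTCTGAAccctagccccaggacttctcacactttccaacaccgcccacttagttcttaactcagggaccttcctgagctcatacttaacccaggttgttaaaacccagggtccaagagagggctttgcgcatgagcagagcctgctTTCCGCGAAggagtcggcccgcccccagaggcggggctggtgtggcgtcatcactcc

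The NRF1 letters were found in 24.4% of the 78 windows, against 5.19% of the 32851 mouse windows of the same length. The ETS letters were found in 16.7% against 6.91%, and CCAAT in 42.3% against 33.8%. The STAT5 letters stood in 7.69% of the windows of these genes and in 7.02% of all windows. The ERR letters stood in 2.56% against 1.14%, and AAGATGG (YY1) in 2.56% against 4.49%. The windows of these genes had a median GC content of 57.6%, against 52.4% for all windows, and no matches of different motifs overlapped. A match is a string of letters and was not tested for binding.

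The files held 21.0 to 41.3 M gene counts per library. The 12 adipocyte markers were all above 1 CPM in each group. RNA of other tissues was present in some libraries. Skeletal muscle genes summed to 103 to 1472 CPM in WT females, 46.6 to 192 CPM in Y665F females and 32.1 to 2533 CPM in Y665H females. Epididymis genes summed to 13717, 3317 and 1260 CPM in WT males 2, 3 and 4 and to 1.06 CPM in WT male 1. In mutant males they reached 1658 CPM in Y665H male 3, 953 CPM in Y665F male 4 and 404 CPM in Y665F male 1. Epithelial genes summed to 1694 and 880 CPM in WT males 2 and 3, 1509 CPM in Y665F female 3 and 632 CPM in Y665F male 4, and to at most 438 CPM in each other library. Reads assigned to no gene were 32.5 to 35.9% of all in Y665F females, 24.8 to 29.9% in Y665H females and 27.9 to 30.3% in WT females. In bulk tissue, fewer cells of a type and less RNA per cell cannot be told apart.

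The summed level of the 86 genes was highest in females with Y665H. Their libraries held 13042.5, 12085, 12123 and 12535 CPM. WT females held 9096, 9968, 9916 and 9195 CPM, and Y665F females 8050, 9169, 8132 and 8812 CPM. In males the sums ran from 6907 to 8609 CPM for WT, 6794 to 7961 CPM for Y665F and 7584 to 8699 CPM for Y665H. All 4 Y665H female libraries thus lay above every other library, while the male groups overlapped. The ratio of the group means of these sums was 1.46 for Y665H over Y665F females, 1.30 for Y665H over WT females and 0.895 for Y665F over WT females. It was 1.55 for Y665H females over Y665H males, a pair for which no test by gene was run.

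**Figure D1:**
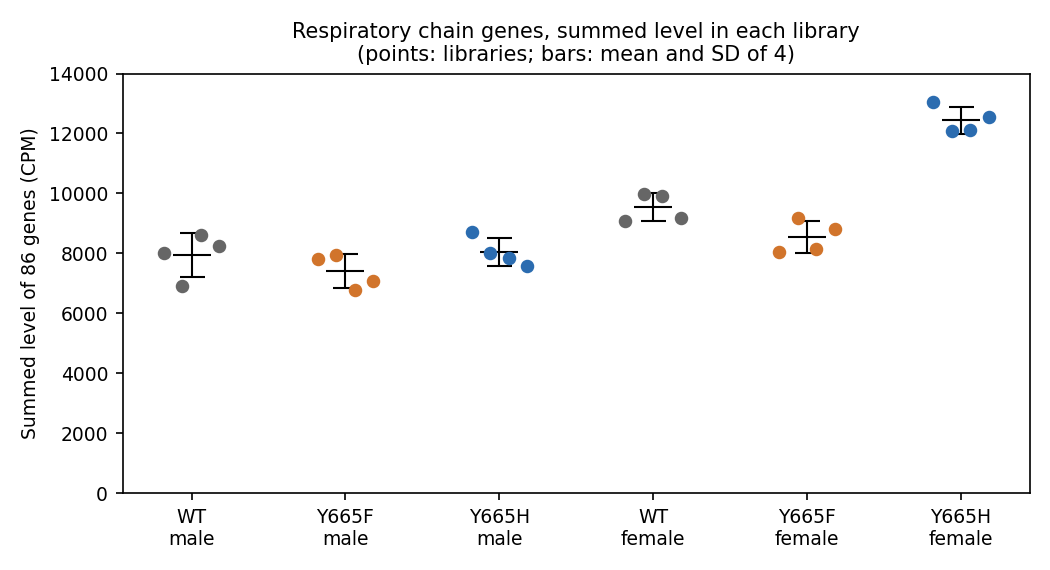
Summed level of the 86 respiratory chain genes in CPM (vertical axis) for each library of the 6 groups (horizontal axis), with the mean and SD of 4 libraries as bars. The 4 Y665H female libraries sit between 12085 and 13042.5 CPM, above the other 20 libraries.

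Among the contrasts tested, the one with the most genes called was between the mutations in females. All 86 genes had a higher estimate in Y665H than in Y665F females, and 61 rose past an adjusted p of 0.05 (edgeR's quasi-likelihood test over 15493 genes), which is the meaning of "called" throughout. The median change was 0.62 on the log2 scale, a fold of 1.53, against a median of -0.03 over all genes tested. Of all genes, 8.77% were called higher in this contrast. The libraries of the groups did not overlap for 58 of the 86 genes, all higher in Y665H, against 6.62% of all genes. By role, the called genes were 26 of 35 in complex I, 4 of 4 in complex II, 8 of 9 in complex III, 9 of 12 in complex IV, 10 of 16 in complex V and 4 of 10 assembly factors.

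In complex I, which oxidises NADH, Ndufv3 had the smallest p. Ndufv3, an accessory subunit of the NADH-binding arm, stood at 83.5, 76.8, 79.2 and 76.2 CPM in Y665H females and at 44.5, 48.8, 42.8 and 49.6 CPM in Y665F females. The groups did not overlap, and the change was 0.91 ± 0.09 (log2, SE; adjusted p = 0.00148). Ndufs1, the largest core subunit with iron-sulfur clusters, stood at 218, 197, 229 and 272 CPM against 142, 149, 141 and 160 CPM. The Ndufs1 change was 0.77 ± 0.11 (adjusted p = 0.00306), again without overlap. Ndufb5, an accessory subunit of the membrane arm, rose by 0.68 ± 0.07.

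Complex II, succinate dehydrogenase, is also an enzyme of the citrate cycle, and each of its 4 subunit genes was called. Sdha, the flavoprotein that oxidises succinate, stood at 950, 873, 958 and 1061 CPM in Y665H females and at 533, 595, 501 and 616 CPM in Y665F females. The groups were far apart, with a change of 0.92 ± 0.12 (adjusted p = 0.0024). Sdhb, its iron-sulfur subunit, stood at 106, 96.3, 96.4 and 106 CPM against 67.6, 77.0, 61.9 and 73.6 CPM (0.67 ± 0.10). Sdhc, a membrane anchor, rose by 0.50 ± 0.08 and was nearly level within Y665H females, at 183 ± 0.817 CPM (SD, n = 4).

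Complex III had the highest median change of the 6 roles, 0.76. Uqcrc1, a core protein, stood at 372, 351, 335 and 367 CPM in Y665H females and at 230, 246, 224 and 247 CPM in Y665F females, a change of 0.74 ± 0.09. Uqcrc2, the other core protein, rose by 0.90 ± 0.11, and Uqcrb, a small subunit that binds ubiquinone, by 0.62 ± 0.08. Uqcr11, the smallest subunit, was the member of this complex that was not called, with 0.64 ± 0.19 and an adjusted p of 0.0535.

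In complex IV, cytochrome c oxidase, Cox7b had the largest change of all 86 genes. Cox7b stood at 81.1, 73.0, 67.6 and 72.9 CPM in Y665H females and at 34.4, 43.2, 38.8 and 43.1 CPM in Y665F females. The change was 1.03 ± 0.11, a fold of 2.05 after edgeR's scaling (adjusted p = 0.00166). Cox4i1, the ubiquitous form of the largest nuclear subunit, stood at 740, 655, 715 and 711 CPM against 468, 494, 520 and 493 CPM (0.66 ± 0.09). Cox5a rose by 0.74 ± 0.08 and Cox7c by 0.61 ± 0.08. The 3 genes not called were Cox8a, Cox6a1 and Ndufa4l2, a paralog of Ndufa4, with estimates of 0.84, 0.78 and 0.29.

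In complex V, Atp5b, the catalytic beta subunit, had the highest level of all 86 genes. It stood at 1990, 1877, 1919 and 1940 CPM in Y665H females and at 1193, 1343, 1112 and 1284 CPM in Y665F females, with no overlap and a change of 0.79 ± 0.12 (adjusted p = 0.00454). Atp5o, which joins the catalytic head to the stalk, rose by 0.84 ± 0.12, Atp5j2, a membrane subunit, by 0.61 ± 0.07 and Atp5k, another, by 0.64 ± 0.08. Atp5g3, which encodes the ring subunit c and whose window is shown above, rose by 0.92 ± 0.14.

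The assembly factors moved least, with a median change of 0.24. Ndufaf1, Ndufaf2 and Ndufaf4, which help to build complex I, rose by 0.41 ± 0.07, 0.72 ± 0.14 and 0.54 ± 0.12. Cox7a2l, counted here among the assembly factors, had the lowest estimate of the 86 genes, 0.09 ± 0.11. Its libraries overlapped, at 55.2, 54.6, 63.8 and 59.0 CPM in Y665H females and 52.1, 52.5, 77.2 and 60.7 CPM in Y665F females. Its mean CPM was lower in Y665H (58.2) than in Y665F females (60.6), while the estimate, scaled by edgeR, was above 0.

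Other RNA differed between these groups as well. Thermogenic fat genes, a list with Ucp1, Cidea and Cox8b, summed to 259, 306, 101 and 121 CPM in Y665H females and to 46.4, 59.2, 57.5 and 49.0 CPM in Y665F females, and 7 of 9 tested were called higher. Ucp1, the uncoupling protein of brown fat, ran from 0.312 to 88.1 CPM in Y665H females and reached 0.858 CPM in Y665F females. With this list, without its Cox genes, as a covariate, 7 of the 86 genes were called and the median change was 0.52. Since the sums of the full list did not overlap between the groups, the list and the mutation cannot be told apart in that fit. Of 15 tested skeletal muscle genes 10 were also called higher, and with that list as a covariate 68 of the 86 genes were called. Y665H female 1, with the least muscle RNA of its group (32.1 CPM), had the highest summed level of the 86 genes, which is a description of 1 library with no test. Without the other 3 Y665H libraries edgeR called 0 of the 86 genes, 76 had an unadjusted p under 0.05, and the lowest adjusted p was 0.0824. That fit has 1 library for Y665H, assumed to vary like Y665F. Macrophage, T and NK cell and B cell markers were higher in Y665F females, with 7 of 12, 8 of 13 and 8 of 11 called. The share of all genes called in that direction is not given, so these counts alone show no excess. Adipocyte markers had a median change of 0.47, with 2 of 12 called, and with that list as a covariate 56 of the 86 genes were called. Without Y665F females 3 and 4, which had the most epithelial RNA, 52 were called. The part of immune cells and of the reads assigned to no gene in this result was not tested.

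**Figure D2:**
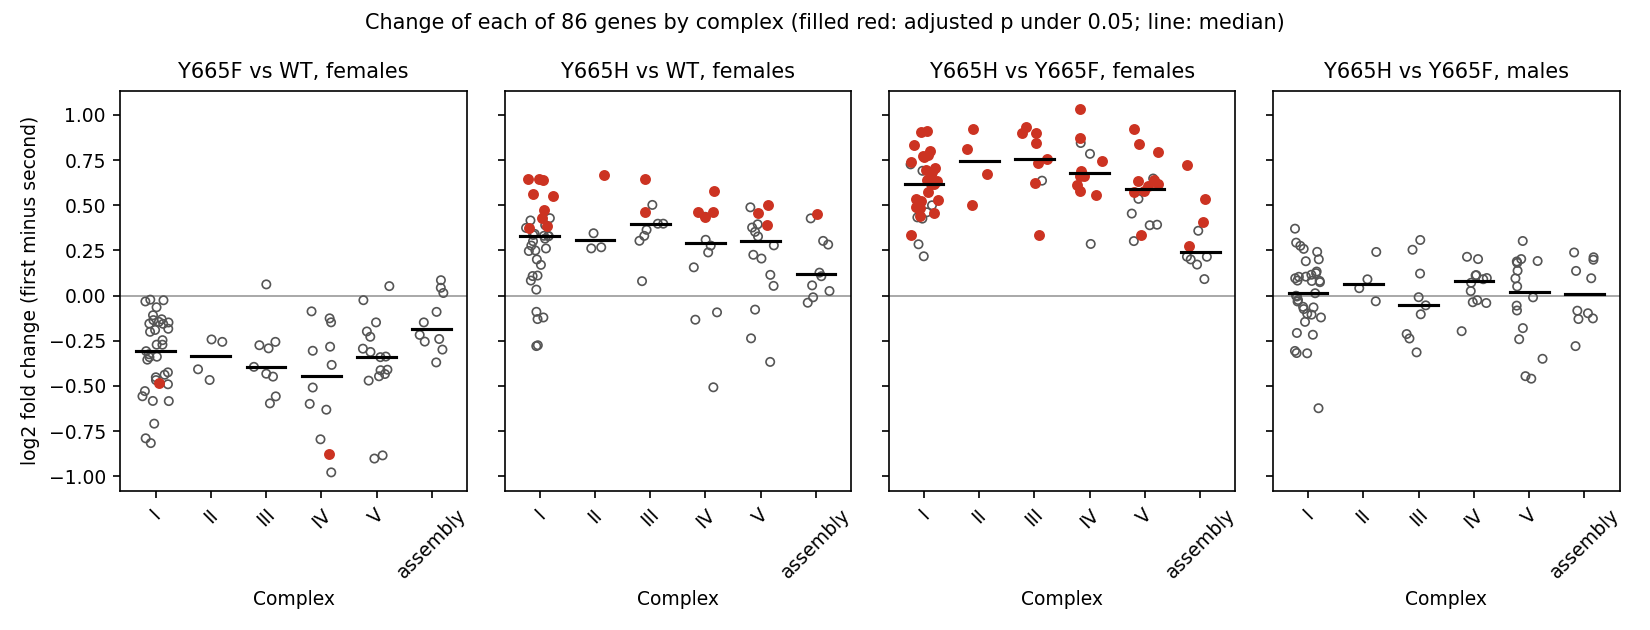
The log2 fold change of each of the 86 genes (vertical axis) by complex (horizontal axis) in 4 contrasts, with genes past an adjusted p of 0.05 filled red and the median of each complex as a line. In females, the edgeR estimate for Y665H against Y665F is above 0 for all 86 genes, while in males the points scatter around 0.

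Against WT females, Y665H females had more of most of these transcripts. The estimate was higher for 73 of 86 genes, with a median of 0.31 on the log2 scale, a fold of 1.24. Of the 86 genes, 20 rose past the threshold and 0 fell, where 1.53% of all genes were called higher and 1.8% lower. The groups did not overlap for 40 of the 86, all higher, against 6.45% of all genes.

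Of the called genes, 9 belong to complex I, 1 to complex II, 2 to complex III, 4 to complex IV, 3 to complex V and 1 to the assembly factors. In complex I, Ndufb9, an accessory subunit of the membrane arm, rose by 0.55 ± 0.10 and Ndufv1, which binds NADH, by 0.47 ± 0.09. Sdha had the largest change, 0.67 ± 0.12, with 580, 542, 741 and 585 CPM in WT females, all below the Y665H libraries. Uqcrc2 rose by 0.65 ± 0.13. In complex IV, Cox5a rose by 0.46 ± 0.09, Cox6c by 0.43 ± 0.09 and Cox4i1 by 0.58 ± 0.10. In complex V, Atp5b rose by 0.50 ± 0.10, Atp5j2 by 0.46 ± 0.09 and Atp5h, a stalk subunit, by 0.39 ± 0.08. Atp5b stood at 1321, 1416, 1472 and 1309 CPM in WT females, below each Y665H library. Ndufaf1 rose by 0.45 ± 0.09. Sdhb had an estimate of 0.27 ± 0.13 and was not called (adjusted p = 0.258).

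The number called depended on single libraries. Leaving out WT female 1, WT female 4, Y665H female 1 or Y665H female 3 gave 0, leaving out Y665H female 4 gave 1, Y665H female 2 gave 5, WT female 2 gave 10 and WT female 3 gave 23. DESeq2 called 40. Y665H females 3 and 4 held thermogenic sums within the range of WT females (99.2 to 165 CPM), and their summed respiratory chain levels were above all WT females. That is a description of single libraries, and the part of thermogenic fat in the result was not tested by it. With the thermogenic list as a covariate 19 were called, and with the muscle list 24. Rn45s, a precursor of ribosomal RNA, took 3.27 to 5.18% of gene counts in Y665H females and 5.56 to 8.40% in WT females, without overlap, and its part in the result was not tested.

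Most of the 86 genes had a lower estimate in Y665F than in WT females, and few passed the test. The estimate was lower for 81 of 86 genes, with a median of -0.31, a fold of 0.809. Ndufv3 and Cox6a1 were called, both lower, where 1.02% of all genes were called lower. At an unadjusted p under 0.05 there were 54 of the 86. The groups did not overlap for 14 genes that were lower in Y665F and 2 that were higher, against 2.96% and 19.9% of all genes.

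Ndufv3 was measured at 55.9, 62.7, 58.5 and 59.6 CPM in the WT females, above every Y665F female library, and fell by 0.48 ± 0.08 (adjusted p = 0.0251). For Cox6a1, a small subunit of complex IV, WT females held 144, 165, 109 and 163 CPM, and Y665F females held 79.3, 112, 71.6 and 83.1 CPM. The groups overlapped at 109 and 112 CPM, and the change was -0.88 ± 0.18 (adjusted p = 0.0428). The 5 core subunits followed through all contrasts had changes of -0.13 ± 0.13 for Ndufs1, -0.41 ± 0.14 for Sdhb, -0.27 ± 0.08 for Uqcrc1, -0.09 ± 0.10 for Cox4i1 and -0.29 ± 0.12 for Atp5b, none of them called. Scaling by library totals moved the median of all genes from 0.02 to 0.15 and that of the 86 from -0.31 to -0.17, and gave Ndufs1 and Cox4i1 estimates of 0.0019 and 0.047.

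DESeq2 called 39 genes for Y665F. Leaving out WT female 1, WT female 2, WT female 4, Y665F female 1 or Y665F female 4 gave 0 with edgeR, and leaving out WT female 3 gave 4. Thermogenic genes fell with Y665F, with 6 of 8 called, and with that list as a covariate 0 of the 86 were called by edgeR and 0 had an unadjusted p under 0.05. Sums of the full list did not overlap, at 99.2 to 165 CPM in WT females and 46.4 to 59.2 CPM in Y665F females. The list and the genotype thus cannot be told apart in that fit. T and NK cell markers rose, with 9 of 13 called, where the share of all genes called higher is not given. The part of these markers in the result was not tested. The 3 contrasts of female groups share libraries, so their values for a gene are not independent.

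In males no change of the 86 genes between genotypes passed the test. For Y665F against WT males the median was -0.05, for Y665H against WT males -0.01 and for Y665H against Y665F males 0.03. In each of these contrasts edgeR called 0 of the 86 genes, where 0, 0 and 1.03% of all genes were called in either direction. At an unadjusted p under 0.05 there were 2, 2 and 6 genes, and DESeq2 called 1, 0 and 0. Sdha, as an example, stood at 523, 343, 469 and 520 CPM in WT males, at 437, 425, 412 and 392 CPM in Y665F males and at 613, 484, 503 and 441 CPM in Y665H males. The WT range overlapped both mutant ranges, and every Y665F male lay below every Y665H male, though the gene was not called. Atp5b was 1066 ± 228 CPM (SD, n = 4) in WT, 1042 ± 121 CPM in Y665F and 1231 ± 110 CPM in Y665H males. WT male 2, the library with the most epididymis RNA, had the lowest Atp5b level of all 24 libraries, 734 CPM. Ucp1 had 0 counts in the Y665H males.

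**Figure D3:**
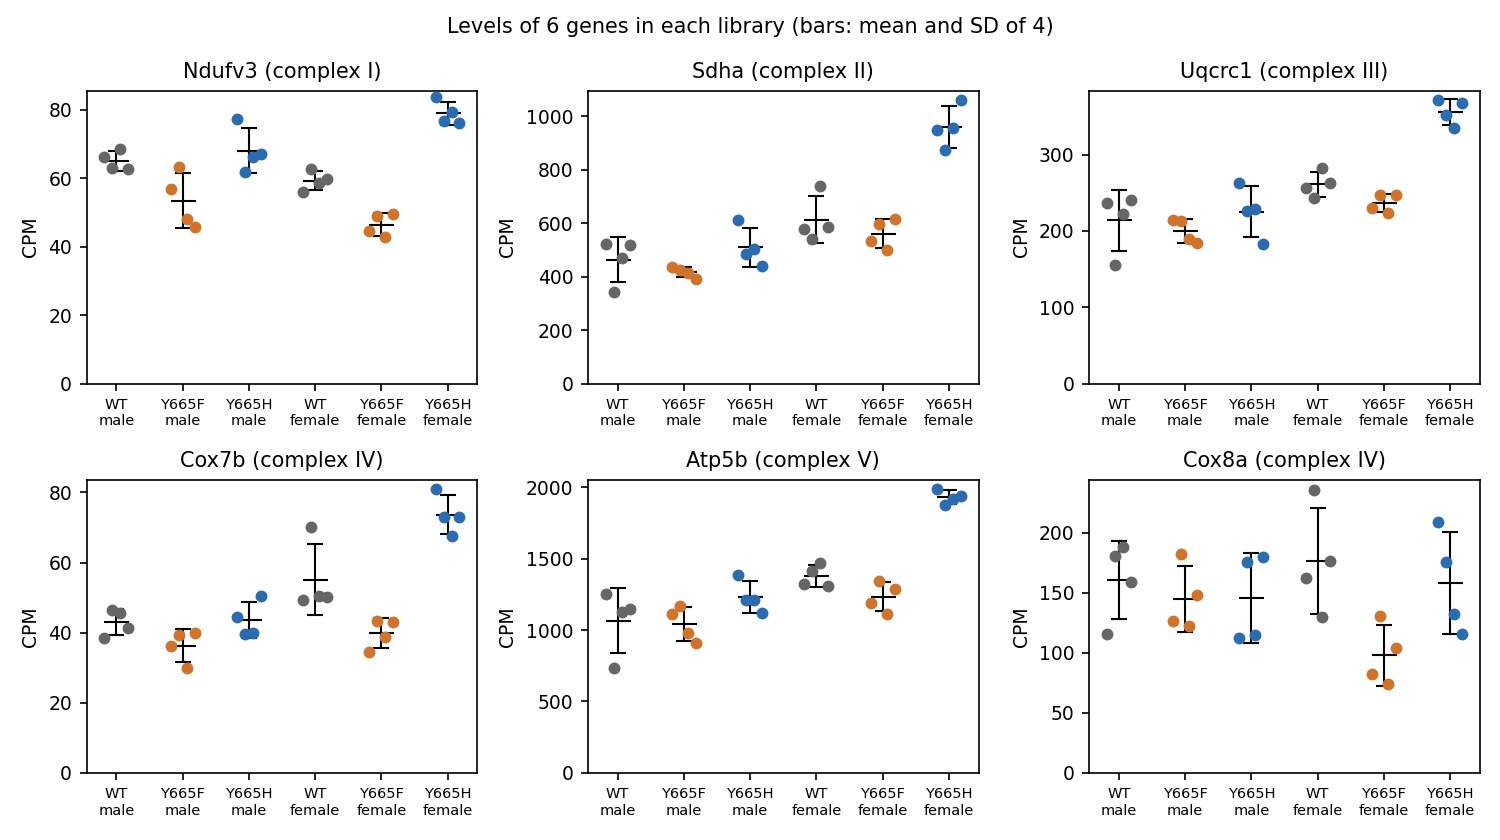
Levels in CPM (vertical axes, starting at 0) of Ndufv3, Sdha, Uqcrc1, Cox7b, Atp5b and Cox8a in each library of the 6 groups (horizontal axes), with the mean and SD of 4 libraries as bars. Y665H females stand above Y665F females without overlap in all panels but that of Cox8a.

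The change from Y665F to Y665H was lower in males than in females for 85 of the 86 genes. In males 45 estimates were above 0 and 41 below, so a lower change can be smaller or reversed. The difference between the sexes was tested as an interaction of sex and mutation in 16 libraries, added with the results in view. It called 11 genes, all with a lower change in males, against 0.692% of all genes in that direction. The median difference was -0.58, and 73 genes had an unadjusted p under 0.05. Values follow for 10 of the 11. In complex I, Ndufb9 differed by -0.85 ± 0.17, Ndufs4, an accessory subunit, by -0.59 ± 0.12 and Ndufb11, another, by -0.62. In complex III, Uqcrfs1, the Rieske iron-sulfur protein, differed by -0.96 ± 0.18, Uqcrh, a hinge protein, by -0.66 ± 0.12 and Uqcrq by -0.96 ± 0.21. In complex IV, Cox5a differed by -0.80 ± 0.13 and Cox7b by -0.83 ± 0.16, and in complex V, Atp5k by -0.83 ± 0.14 and Atp5g3 by -0.94 ± 0.19. Leaving out 1 library gave 0 to 14 called, with 0 without Y665F male 1, Y665H male 3, Y665F female 1 or Y665F female 4, 14 without Y665F male 4, 8 without Y665F female 2 and 1 to 6 without each of the others. Thermogenic genes differed in the same direction, with 3 of 9 called and a median of -2.61, and their part in this difference was not tested.

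Cox5a shows the pattern in single libraries. In males it stood at 73.5, 65.8, 60.4 and 63.8 CPM with Y665F and at 71.6, 67.1, 66.1 and 60.7 CPM with Y665H. In females it stood at 72.7, 82.0, 73.6 and 81.1 CPM with Y665F and at 121, 112, 117 and 117 CPM with Y665H. The male groups overlapped and the female groups did not. For each mutation against WT, the sex interaction called 0 of the 86 genes with edgeR, where 0 and 0.0119% of all genes were called: 25 genes for Y665F and 23 for Y665H had an unadjusted p under 0.05, and DESeq2 called 6 and 5. Without WT male 1 edgeR called 4 and 5. These tests do not show that the sexes responded alike to either mutation, and males of all 3 genotypes carry the epididymis RNA given above.

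**Figure D4:**
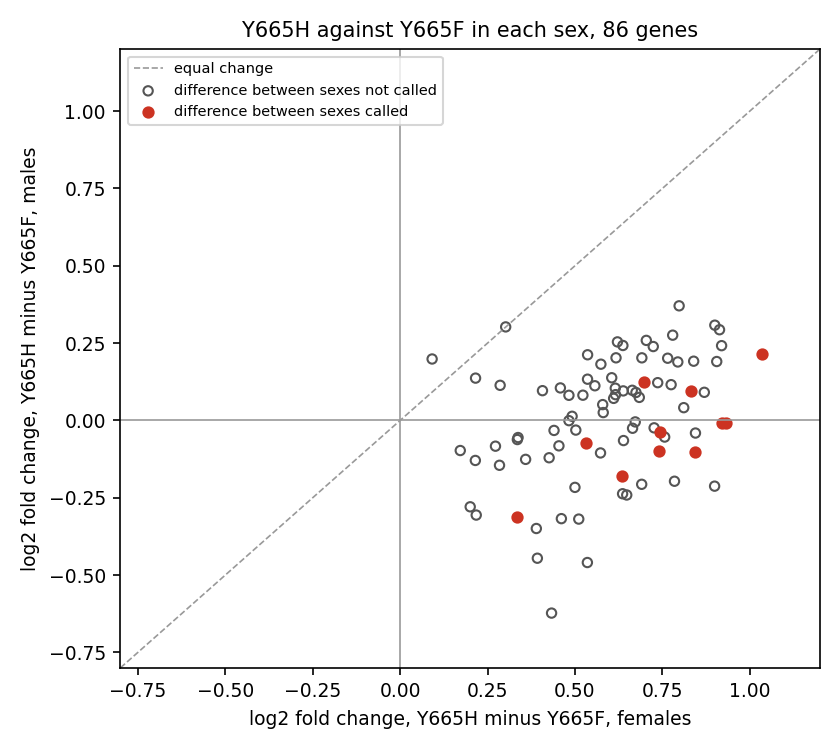
The log2 fold change of Y665H minus Y665F in males (vertical axis) against the same change in females (horizontal axis) for the 86 genes, with the 11 genes whose change differed between the sexes filled red. All 11 lie below the dashed line of equal change.

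In WT mice, most of the 86 genes had a lower estimate in males than in females. The estimate was lower in males for 77 of 86 genes, with a median of -0.42, and 19 fell past the threshold, where 5.95% of all genes were called lower. The groups did not overlap for 23 genes that were lower in males, against 7.01% of all genes. Complex II had 3 of 4 genes called, with Sdhc lowest at -0.71 ± 0.12 (adjusted p = 0.013). Sdhc libraries read 114, 92.6, 108 and 104 CPM in WT males, all below the 146, 159, 168 and 143 CPM of WT females, and Sdhd, the other membrane anchor, fell by 0.57 ± 0.12. In complex I, Ndufa10 fell by 0.51 ± 0.11, Ndufa13 by 0.51 ± 0.11 and Ndufb9 by 0.62 ± 0.14. In complex III, Uqcrq fell by 0.48 ± 0.12, Uqcrh by 0.60 ± 0.15 and Uqcrfs1 by 0.57 ± 0.15. Cox5a fell by 0.43 ± 0.11 and Cox7c by 0.51 ± 0.14, Atp5j2 by 0.56 ± 0.13, Atp5o by 0.54 ± 0.12 and Atp5k by 0.64 ± 0.15, and Uqcc1, an assembly factor of complex III, by 0.62 ± 0.14.

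Sex, fat depot and other cells' RNA cannot be told apart in these WT libraries. Thermogenic genes were lower in WT males, with 7 of 8 called and a median of -2.28, as were skeletal muscle genes, with 9 of 14 called, and fibroblast markers, with 5 of 6 called. Of 11 epithelial genes 5 were called higher. The part of the thermogenic and fibroblast genes in the result was not tested. With the epididymis, muscle or adipocyte list as a covariate 0 of the 86 genes were called by edgeR, with 21, 47 and 27 at an unadjusted p under 0.05, and DESeq2 without a covariate called 41. Leaving out WT male 1 gave 34 called, WT male 2 gave 10, WT male 3, WT male 4 or WT female 2 gave 2, and each of the other WT females gave 1. Scaling by library totals moved the median of all genes from 0.04 to 0.22 and left 5 called.

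The 86 genes differed in how far libraries of a group spread. The mean coefficient of variation within groups ran from 5.47 to 34.6%, with a median of 11.5%. The 10 genes with the widest spread were Atp5l, Atp5g1, Ndufa11, Ndufb2, Atp5d, Ndufab1, Cox8a, Cox6a1, Ndufaf3 and Ndufb4, each at 19.5% or more. None of these 10 was called between Y665H and Y665F females, against 61 of the other 76, though Cox8a had an estimate of 0.84 ± 0.26. Spread within groups, these females included, also enters the test. Genes picked for wide spread were thus bound to be called less often, and these counts are no separate finding. The 25 genes not called had a median change of 0.43 and a median spread of 16.0%, against 0.66 and 10.4% for the called genes.

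These wide genes spread together. Cox8a, a small subunit of complex IV, stood at 209, 176, 132 and 116 CPM in Y665H females and at 82.4, 131, 74.0 and 104 CPM in Y665F females. Atp5l, a membrane subunit of complex V, ran from 58.2 and 46.6 CPM in Y665H females 1 and 2 down to 24.9 CPM in Y665H female 4, and stood at 25.5, 40.2, 24.4 and 32.7 CPM in Y665F females. Both were highest in libraries 1 and 2 of Y665H and in library 2 of Y665F. In each of the 6 groups, library 2 held the highest or next highest level of both genes. What a replicate number shares is not given. Over the 24 libraries, after subtracting group means, the log2 levels of the other 9 genes had correlations of 0.48 to 0.96 with Cox8a, and 13 of the 85 other genes had one above 0.8, while 26 had one below 0. The points share libraries, depth and preparation, and the 10 genes were picked for their spread. Their longest annotated transcripts had a median GC content of 54.1%, against 50.2% for the others. The 10 genes were split: Ndufb2, Ndufab1, Atp5g1 and Atp5l, at 43.7 to 47.8%, lay below the median of the others, and the rest above it.

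**Figure D5:**
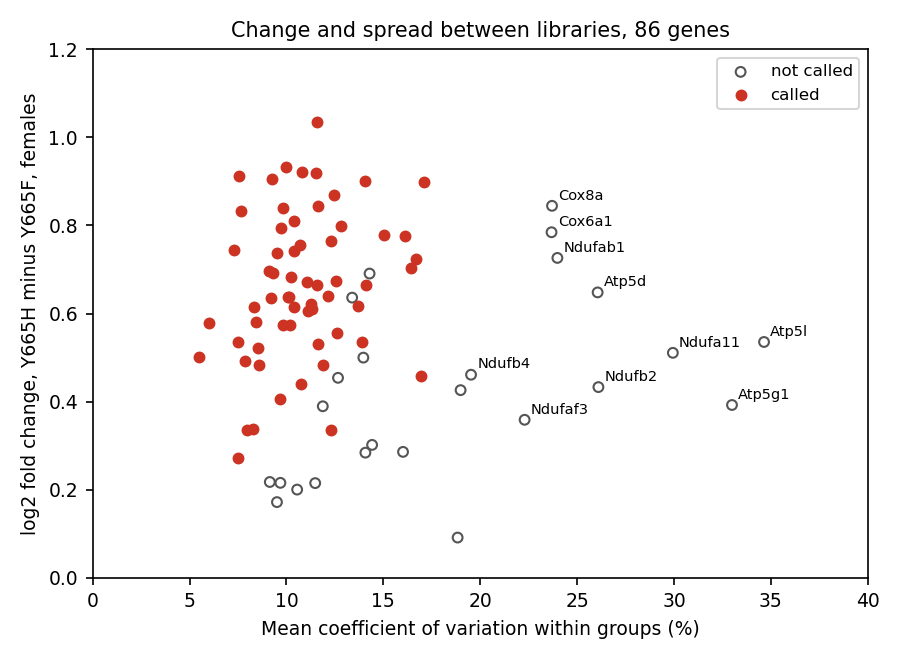
The log2 fold change of Y665H minus Y665F in females (vertical axis) against the mean coefficient of variation within groups in percent (horizontal axis) for the 86 genes, filled red where called. The 10 genes of widest spread, at 19.5% or more, are named and none is called. Spread within groups also enters the test, so the axes and the calls are not independent.

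Some of these genes share sequence with other loci. A near-identical copy (at least 95% identity over at least 150 bases of transcript) was found for 22 genes, Cox7b and Atp5l among them, and their counts are uncertain to the extent that reads were split. Exons of 27 genes were overlapped by a gene on the other strand, as Cox4i1 is by Emc8, and 4 by a gene on the same strand, and the strand setting of the counting is not given in the sources used here. Levels per length of exon were highest for Cox4i1 (315 CPM per kb), Atp5b (310 CPM per kb) and Cox8a (238 CPM per kb) as means over all libraries.

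Other genes of the same pathways were followed by lists. Between Y665H and Y665F females, all 16 genes of the citrate cycle and pyruvate dehydrogenase rose, with a median of 0.83; Idh3g, a subunit of NAD-dependent isocitrate dehydrogenase, rose by 0.95 ± 0.10, Idh3b by 0.79 ± 0.08 and Suclg1, of succinyl-CoA ligase, by 0.58 ± 0.05. Of 12 genes for the electron carriers ubiquinone and cytochrome c 7 rose, with Coq5 at 0.64 ± 0.07. Of 35 further assembly factors 18 rose, with Coa5 at 0.55 ± 0.08, and of 77 genes of the mitochondrial ribosome 37 rose, with Mrpl50 at 0.47 ± 0.06. Among all genes tested, 8.77% were called higher. Of 14 regulators of mitochondrial biogenesis 4 rose and 1 fell: Ppargc1b, a coactivator, rose by 0.71 ± 0.11 and Pprc1, a related coactivator, fell by 0.48 ± 0.09. Of 87 genes matched by the ribosomal name prefixes 0 rose and 2 fell, Rps6kc1 and Rps6ka1, which encode kinases and not ribosomal proteins.

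Of 4 tissue-restricted complex IV isoforms tested, 1 rose between Y665F and Y665H females, and 2 fell in Y665F against WT females. Cox8b, a form found in muscle and brown fat, stood at 28.9 ± 11.4 CPM (SD, n = 4) in Y665H females, 14.9 ± 4.29 CPM in WT females and 3.73 ± 0.894 CPM in Y665F females. Its change was 3.11 ± 0.32 between the mutations, and -2.13 ± 0.23 for Y665F against WT. Cox7a1, another such form, fell by 0.94 ± 0.19 in Y665F against WT females. Both genes are also on the thermogenic list, which moved with the groups as given above.

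In Y665H against WT females 5 of 16 citrate cycle and pyruvate dehydrogenase genes rose, with Pdha1 at 0.93 ± 0.20. So did 2 of 12 electron carrier genes, 2 of 35 further assembly factors, 2 of 14 regulators and 2 of 77 mitochondrial ribosome genes. Of all genes, 1.53% were called higher there, and the count for the mitochondrial ribosome was close to that share. In Y665F against WT females Idh3g, of the citrate cycle, fell by 0.60 ± 0.12, and Coq6, of ubiquinone synthesis, by 0.35 ± 0.08. In WT males against WT females 4 of 16 citrate cycle and pyruvate dehydrogenase genes, 5 of 12 electron carrier genes, 4 of 35 further assembly factors and 2 of 77 mitochondrial ribosome genes fell, where 5.95% of all genes were called lower. Ppargc1b was the regulator whose change between the mutations differed between the sexes (-1.13 ± 0.16); it stood at 29.1 ± 0.611 CPM in Y665H females, 19.8 ± 2.81 CPM in Y665F females, 19.4 ± 3.71 CPM in Y665H males and 24.9 ± 2.63 CPM in Y665F males. The subunits encoded by mitochondrial DNA were not analysed here.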

How the data were processed

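Gene counts of 24 adipose libraries were used as deposited, 1 file per library. Per the submitters' processing notes, the tools named were FastQC 0.11.9, Trimmomatic 0.36, STAR, SAMtools 1.9, Picard 2.9.2 and HTSeq 0.9.1, with mm10; the annotation and strand setting are not given in the sources used here. The authors deposited whole-number counts per gene symbol. Library sizes exclude the entries that stand for no gene (5 a file), 24.8 to 39.7% of the reads listed. CPM are counts per 1e6 gene counts.

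Contrasts were fitted in R 4.3.3 with edgeR 4.0.16 (TMM scaling, filterByExpr, quasi-likelihood F test, Benjamini-Hochberg over all genes tested) on the 8 libraries of the groups compared, and on 16 for interactions. Changes are log2 ± SE. They use TMM scaling, while CPM are scaled by gene counts alone, so a change can differ from the ratio of the CPM beside it. All 86 genes passed the filter in every contrast. DESeq2 1.42.0, other scalings, no filter, all 24 libraries, a replicate block, marker lists as covariates and each library left out were alternatives. For counts at an unadjusted p, and for counts from the alternatives, the share of all genes is not given. Nor is it given for listed genes called lower in Y665H than in Y665F females. The same holds for those called higher in Y665F females or WT males than in WT females. Those counts alone therefore show no excess over all genes. The code was tested on simulated counts.

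Members and lists were chosen with earlier results of these data known. Named genes were 5 fixed core subunits, up to 3 called genes of smallest p per complex, direction and contrast, and up to 3 per pathway list. Some genes that this rule selects are not reported here. Ndufb6, named for its promoter window, and genes named for their spread were chosen after their values were seen. No 2 libraries agreed within sampling noise. Between the groups compared, deviations of same-numbered libraries, over genes at 1 CPM or more, had correlations of mixed sign. They ran from -0.371 (number 2, Y665F and WT males) to 0.722 (number 2, Y665H and Y665F males). The labels do not say what a number shares, so the numbers were not used as pairs.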

Additional observations from a re-analysis of the deposited data

Results flagged for a closer look

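Among the 34 genes named, 210 groups of 4 libraries (with those of the summed level) were examined for a library apart from its group, and 15 had one; chance gives about 1 in 20 groups. WT male 2, the library with the most epididymis RNA, was low for Ndufv1 (111 CPM, the others 155 to 161 CPM), Sdhb (52.1 CPM) and Atp5j2 (61.8 CPM). WT female 2 was high for Cox7b (70.2 CPM, the others 49.3 to 50.4 CPM) and Ndufb5 (41.2 CPM). WT female 3 was high for Ndufs1 (189 CPM) and Uqcrc2 (271 CPM). Y665H female 1 was high for Atp5g3 (341 CPM, the others 284 to 294 CPM) and Uqcrfs1 (184 CPM). Y665F male 1 was high for Atp5h (123 CPM) and Cox4i1 (424 CPM), Y665H male 4 for Ndufaf4 (13.1 CPM) and Y665F female 2 for Uqcrq (108 CPM). Y665H female 2 was low for Cox6c (90.1 CPM) and Y665H female 3 for Sdhc (181 CPM, the others 182.9 to 183.2 CPM).

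The change from Y665F to Y665H differed between males and females, by edgeR's interaction test, for 11 genes, 10 of which are given here. The male change minus the female change was -0.80 for Cox5a, -0.83 for Atp5k, -0.66 for Uqcrh, -0.96 for Uqcrfs1, -0.83 for Cox7b, -0.85 for Ndufb9, -0.59 for Ndufs4, -0.94 for Atp5g3, -0.62 for Ndufb11 and -0.96 for Uqcrq on the log2 scale.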

How the results depend on the processing

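Values are counts of the 86 genes called, and the cause of a change in these counts was not tested. DESeq2 called 39 for Y665F and 40 for Y665H against WT females, 1 for Y665F against WT males, 41 between WT sexes, and 6, 5 and 36 in the sex interactions of Y665F, Y665H and Y665H against Y665F. A fit over all 24 libraries called 8, 10, 3 and 53 in the first 4 of these and 4 in the last interaction. With the replicate block, whose numbers are not known to pair the libraries, 21, 0 and 5 were called for Y665F females, Y665H females and WT sexes. In the last interaction 20 were called with it. Library totals gave 5 for WT sexes, and no filter 7 in the last interaction. The muscle list as a covariate gave 0 for Y665F females and WT sexes, and 30 in the last interaction; the adipocyte list gave 0, 0 and 36; the epididymis list gave 0 for WT sexes and 6 in that interaction. Chosen after seeing the data, the thermogenic list gave 0 for Y665F against WT females and 7 for Y665H against Y665F females, and leaving out WT females 1 and 4, those with Y665H females 2, 3 and 4, the latter 3 alone, or WT males 2, 3 and 4 gave 0 in the contrasts they enter. All alternatives for the interaction of Y665H against Y665F were also added then.

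Without each library in turn the counts ran from 0 to 4 for Y665F and 0 to 23 for Y665H against WT females, 57 to 67 for Y665H against Y665F females, 1 to 34 for WT sexes, 0 to 4, 0 to 5 and 0 to 14 for the interactions of Y665F, Y665H and Y665H against Y665F, and stayed 0 in the 3 male contrasts.

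Changes of sign occurred in 44 fits, all of core subunits not called in the contrast. For Y665F against WT females, library totals gave 0.0019 for Ndufs1 and 0.047 for Cox4i1, and for WT sexes 0.011 for Cox4i1. For Y665F against WT males, the adipocyte covariate gave -0.036 for Ndufs1, -0.038 for Sdhb and -0.10 for Atp5b, the epididymis covariate -0.29, -0.084 and -0.26, and leaving out WT males 2 and 3 -0.18, -0.0025 and -0.14; library totals gave -0.039 for Atp5b and the muscle covariate 0.053 for Uqcrc1. For Y665H against WT males, the adipocyte covariate gave -0.20 for Ndufs1, -0.061 for Sdhb, -0.16 for Uqcrc1 and -0.096 for Atp5b, the epididymis covariate -0.18, -0.020, -0.15 and -0.062, the muscle covariate -0.31 for Ndufs1, -0.19 for Uqcrc1 and -0.14 for Atp5b, and leaving out WT males 2 and 3 -0.052 for Ndufs1 and -0.049 for Uqcrc1. For Y665H against Y665F males, the muscle covariate gave -0.12 for Sdhb and -0.00032 for Uqcrc1, and the adipocyte covariate -0.21 for Sdhb. In the interaction of Y665F, Ndufs1 was -0.091 with the adipocyte and -0.16 with the epididymis covariate. Without each library in turn, Ndufs1 ran from -0.18 to 0.0080 for Y665F against WT females; for Y665F against WT males Ndufs1 ran from -0.10 to 0.25, Sdhb from -0.049 to 0.18, Uqcrc1 from -0.15 to 0.046 and Atp5b from -0.11 to 0.13; Uqcrc1 ran from -0.026 to 0.21 for Y665H against WT males, and Sdhb from -0.25 to 0.0086 in the interaction of Y665H. Of named genes called in a contrast, 671 alternative values kept their call, 489 lost it and 0 changed sign.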

Other observations

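Cox7a2l and Atp5g1 had their highest levels of all 24 libraries in WT male 2, the library with the most epididymis RNA. Cox7a2l was at 150, 86.5 and 73.8 CPM in WT males 2, 3 and 4, whose epididymis genes summed to 13717, 3317 and 1260 CPM, and at 47.5 CPM in WT male 1, whose sum was 1.06 CPM. Atp5g1, a gene for ring subunit c of the ATP synthase, was at 125, 53.1 and 36.3 CPM in the same 3 libraries and at 21.9 CPM in WT male 1. Other males with epididymis RNA did not all share this. Y665H male 3, with a sum of 1658 CPM, held 65.0 CPM of Cox7a2l and 23.1 CPM of Atp5g1, within the ranges of its group (54.4 to 72.7 and 21.1 to 36.1 CPM). Y665F male 4, with a sum of 953 CPM, held 60.9 and 53.0 CPM, each the highest of its group. Atp5b went the other way, with 734 CPM in WT male 2 and 1128 to 1255 CPM in the other WT males. These orders are descriptions, with no test.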
